A study of Mus musculus with 7 samples.

Results

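The genes described here encode proteins of the mitochondrial ribosome. They were taken from the platform annotation as probe sets with a single symbol beginning with Mrpl or Mrps and a digit. This gave 127 probe sets for 74 genes, 47 Mrpl and 27 Mrps, among 8077 genes tested. For each gene the probe set with the highest mean over the 7 arrays was used, and all 74 passed the filter on dim probe sets. Another 3 probe sets also named a second gene and were left out.

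The mitochondrial ribosome translates the few messenger RNAs that mitochondrial DNA encodes, which are core subunits of the respiratory chain and ATP synthase. Its proteins come from nuclear genes and are imported and assembled on mitochondrial ribosomal RNA. The large subunit forms peptide bonds and the small subunit decodes the message. Some of its proteins have counterparts in the bacterial ribosome and others are found only in mitochondria. The symbols follow the subunit with exceptions. Structures of the mammalian particle place the products of Mrps30 and Mrps18a in the large subunit, and the product of Mrps36 belongs to the 2-oxoglutarate dehydrogenase complex.

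RNA came from LSK cells (without lineage markers, positive for Sca-1 and c-Kit) of the bone marrow of C57BL/Ka-CD45.2:Thy-1.1 mice, a sort for stem cells and multipotent progenitors of blood. The 4 Lkb1 KO samples (numbers 4 to 7) came from Lkb1 L/L, rosa26CreERT2 mice and the 3 Lkb1 WT samples (numbers 5 to 7) from Lkb1 L/L mice without Cre. Both groups received tamoxifen for 5 days, and the cells were sorted 1 day after the last injection. The floxed alleles and tamoxifen were therefore shared, while Cre and deletion of Lkb1 (gene Stk11) occurred in KO mice alone. Cre was expressed from the Rosa26 locus, which is not limited to blood cells. The animals' age was not given, and nothing in the labels says that the samples were separate animals, so the p-values cover a spread between samples that may be technical only. Each sample of 15000 to 20000 cells gave about 10 ng of RNA, which was amplified before hybridization to 1 array.

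Values below are normalized log2(signal + 16), and a log2 fold change is KO minus WT with its limma standard error. That scale understates the change of dim genes. As deposited the arrays differed in overall brightness, with trimmed mean signals of 360.4 to 425.9 in KO against 228.6 to 340.5 in WT (p = 0.0286 by exact permutation, the smallest that 35 splits allow). The deposited signals of all tested genes were shifted by a median of 0.34 log2 units, so each direction below is relative to the other genes of the array. The brighter probe set of Stk11 was at -0.56 with overlapping groups (limma adjusted p = 0.118), and its place relative to the deletion is not known here, so it does not check the labels. Among the markers of the sort, Kit fell by 0.43 ± 0.10 (limma adjusted p = 0.0468), with 10.37 to 10.47 in KO below 10.65 to 10.96 in WT, and its part in the values below was not tested. Ptprc was at -0.15 and Cd34 at -0.08, neither past the threshold, and Ly6a (Sca-1) was not measured by a probe set of its own.

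Mitoribosomal genes lay higher in Lkb1 KO than in WT, by small amounts. In limma's fit over all genes, 6 of the 74 members rose and none fell at a Benjamini-Hochberg adjusted p under 0.05, against 2.45% of all tested genes that rose and 2.91% that fell. The 6 are 8.11% of the members. The median log2 fold change of the members was 0.20, and that of all tested genes was -0.02. The fold change was above 0 for 63 members (85.1%), and for 47.7% of all genes. At an unadjusted p under 0.05, 29 members were higher and 1 was lower, against 11.8% and 13.6% of all genes. KO and WT values did not overlap, with KO higher, for 25 members (33.8%), where the share of all genes was 11.4%. The reverse held for 1 member, Mrpl57, where the share of all genes was 12.7%.

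Both subunits lay higher in KO. Of 47 Mrpl genes 3 rose and none fell, 16 were higher and 1 was lower at an unadjusted p under 0.05, and the median was 0.19, with the middle of the distribution from 0.06 to 0.32. Of 27 Mrps genes 3 rose and none fell, 13 were higher and none was lower at an unadjusted p under 0.05, and the median was 0.23, with the middle from 0.13 to 0.44. The share of genes above 0 was 85.1% for Mrpl and 85.2% for Mrps. Whether the subunits differ was not tested. With genes placed by structure, 49 large-subunit genes had a median of 0.19 and 24 small-subunit genes a median of 0.26. By structure too, each subunit held 3 of the genes that rose.

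**Figure D1:**
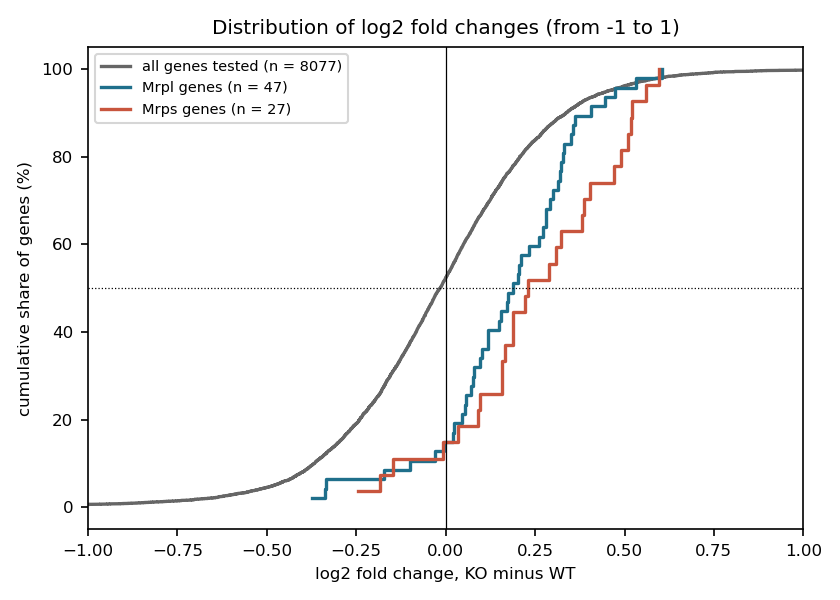
Cumulative share of genes (percent, vertical axis) against log2 fold change, KO minus WT (horizontal axis), for 47 Mrpl genes, 27 Mrps genes and all 8077 tested genes. The Mrpl and Mrps lines cross the dotted 50% line to the right of 0, at 0.19 and 0.23, and the line of all genes crosses it at -0.02.

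**Figure D2:**
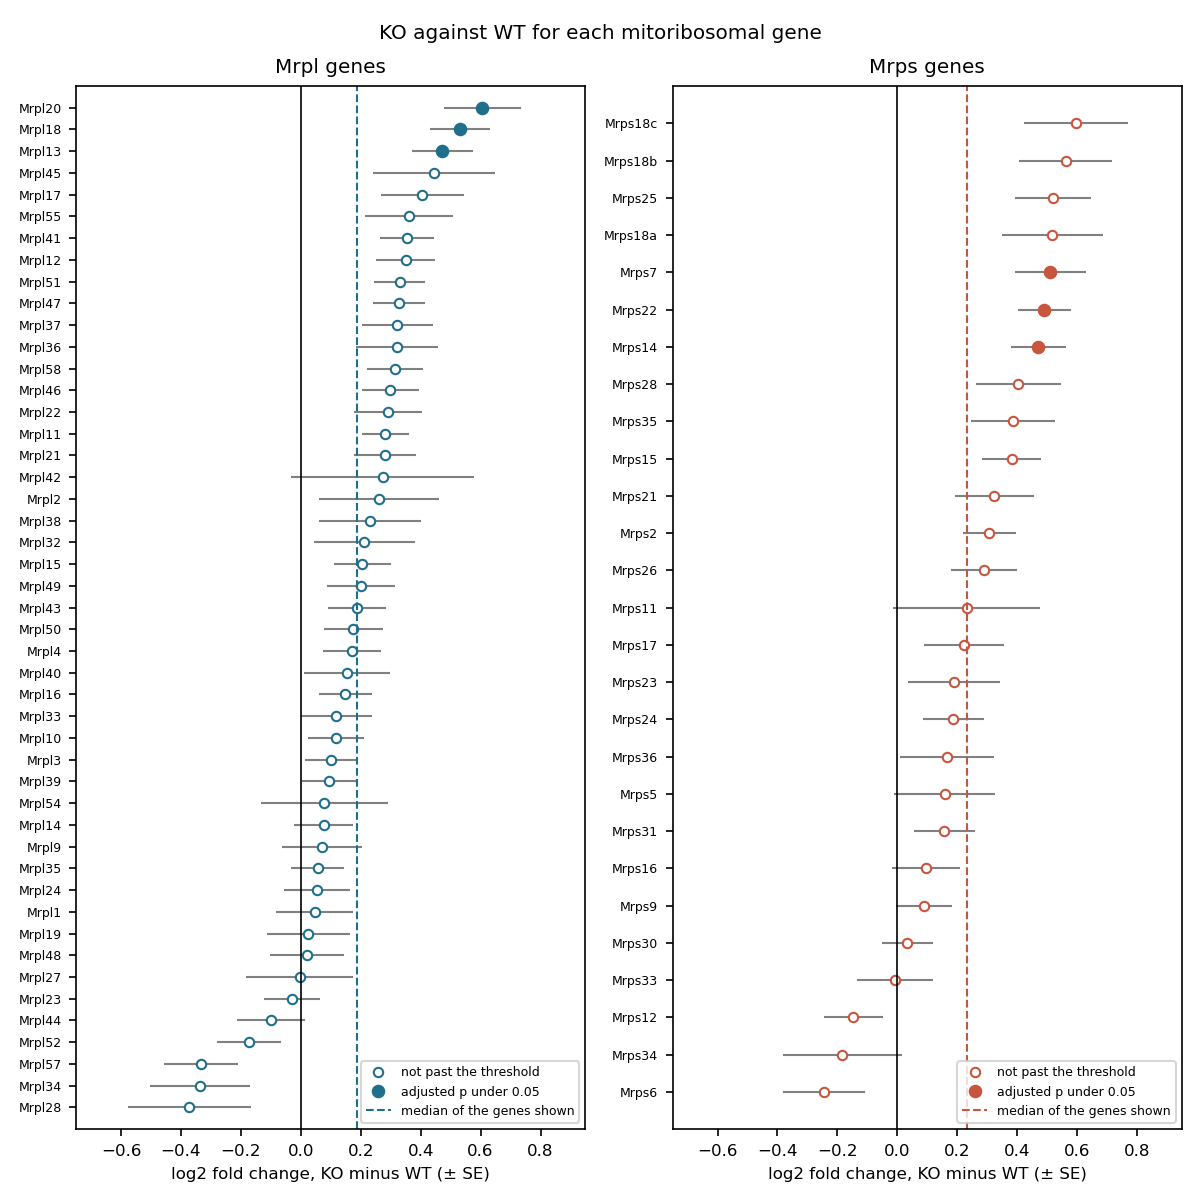
Log2 fold change of each member (horizontal axis, KO minus WT, bars are limma standard errors), with Mrpl genes on the left and Mrps genes on the right. Filled points mark the 3 genes of each subunit that rose, open points the others, and dashed lines the medians of 0.19 and 0.23.

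The 3 large-subunit genes that rose encode proteins with bacterial counterparts. Mrpl20, whose bacterial counterpart binds ribosomal RNA early in assembly of the large subunit, had the largest fold change of all members. Its values were 8.53, 8.42, 8.40 and 8.26 in KO 4 to 7, against 7.95, 7.53 and 7.91 in WT 5 to 7. The lowest KO value lay above the highest WT value, with a fold change of 0.60 ± 0.13 (1.52-fold, limma adjusted p = 0.0370). Mrpl18 belongs to the family of proteins that bind the small ribosomal RNA of the bacterial large subunit. Its values were 9.50, 9.66, 9.34 and 9.53 in KO 4 to 7, against 8.97, 8.92 and 9.03 in WT 5 to 7. The WT arrays lay close together and below every KO array, with a fold change of 0.53 ± 0.10 (1.45-fold, limma adjusted p = 0.0280).

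Mrpl13, related to a bacterial protein that helps to assemble the large subunit, differed between its probe sets. Its brightest probe set gave 10.69, 10.64, 10.47 and 10.65 in KO 4 to 7, against 10.29, 10.08 and 10.05 in WT 5 to 7. These groups did not overlap, and the fold change was 0.47 ± 0.10 (1.39-fold, limma adjusted p = 0.0391). The other probe sets of Mrpl13 differed by 0.13 and 0.14 (exact permutation p = 0.0857 and 0.314). Mrpl18 and Mrpl20 had 1 probe set each.

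The 3 small-subunit genes that rose were Mrps22, Mrps14 and Mrps7. Mrps22 encodes a protein without a bacterial counterpart, and variants of its human gene are known in mitochondrial disease. Its values were 9.40, 9.34, 9.27 and 9.38 in KO 4 to 7, against 8.86, 8.76 and 8.95 in WT 5 to 7. It had the lowest p of all members, with a fold change of 0.49 ± 0.09 (1.40-fold, limma adjusted p = 0.0254). Mrps14 is a counterpart of a bacterial protein of the small subunit's head. It gave 11.51, 11.56, 11.54 and 11.63 in KO 4 to 7, against 11.07, 11.22 and 10.97 in WT 5 to 7. The KO arrays had an SD of 0.05 and lay above all WT arrays, with a fold change of 0.47 ± 0.09 (1.39-fold, limma adjusted p = 0.0309). Its dimmer probe set differed by 0.36 (exact permutation p = 0.0857). Mrps7, whose bacterial counterpart starts assembly of the head, gave 9.21, 9.25, 8.95 and 9.15 in KO 4 to 7, against 8.64, 8.45 and 8.81 in WT 5 to 7. Its KO 6 and WT 7 values lay nearest each other, and its fold change was 0.51 ± 0.12 (1.42-fold, limma adjusted p = 0.0475). Mrps7 did not pass with cyclic loess normalization, a pseudocount of 1 or array weights (limma adjusted p = 0.0539, 0.0573 and 0.054).

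**Figure D3:**
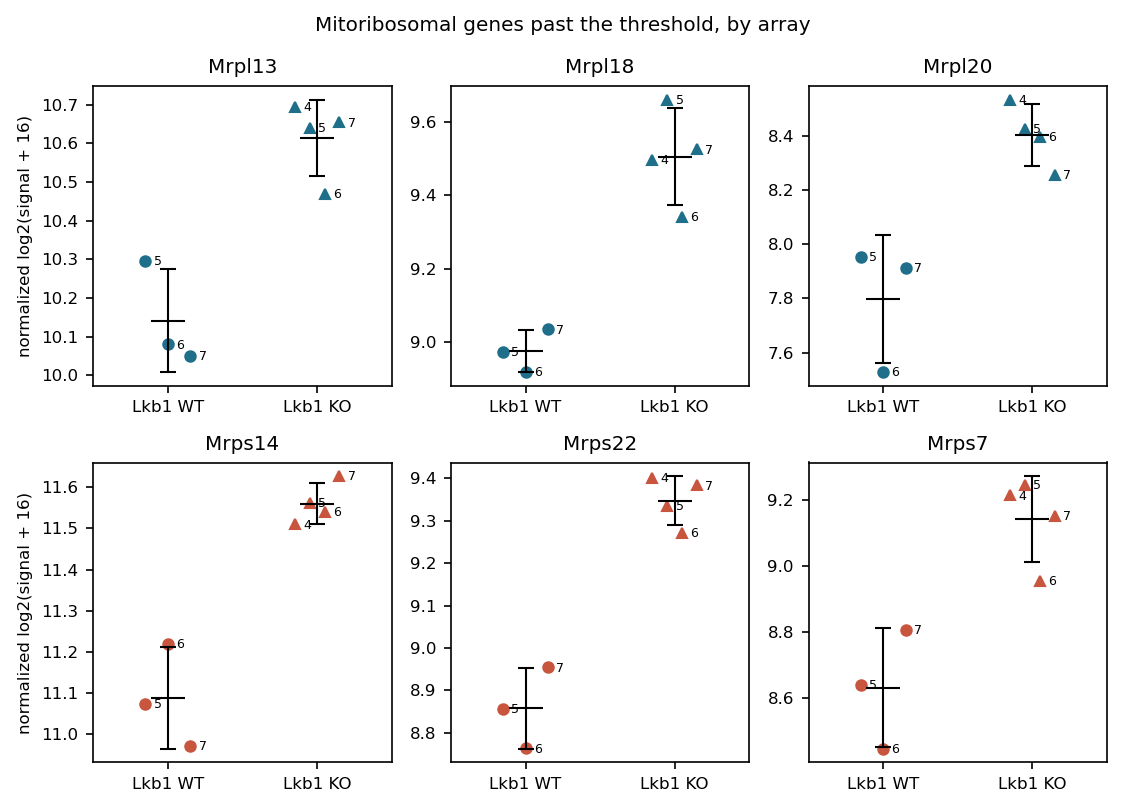
Normalized log2(signal + 16) (vertical axis) of the 6 members that rose, in 3 Lkb1 WT arrays (circles) and 4 Lkb1 KO arrays (triangles), each point marked with its sample number. Bars are the mean and SD, and the groups overlap in none of the 6 panels.

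These calls rested on all 7 arrays together. Without KO 6, Mrpl18 and Mrps22 still passed, and without each of KO 4, KO 5, KO 7, WT 5, WT 6 and WT 7 no member passed. The number of members above 0 was 61 to 64 in these 7 fits, and the members' median ran from 0.17 to 0.22. Mrps22 ranged from 0.44 to 0.54 and Mrpl20 from 0.47 to 0.68, with limma adjusted p at most 0.0738 and 0.0847. Of all tested genes, 0.0987% to 0.951% rose in the same fits.

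The shift was also visible array by array. The median deviation of the members from each gene's own mean over the 7 arrays was 0.12, 0.09, 0.04 and 0.11 in KO 4 to 7. It was -0.15, -0.13 and -0.08 in WT 5 to 7. KO 6 lay lowest among the KO arrays and WT 7 highest among the WT arrays, and the groups did not overlap. On KO 4, KO 5 and KO 7, 59 to 61 of the 74 members lay above their own mean, on KO 6 46 did, and on the WT arrays 18 to 23 did. For Mrps genes alone KO 6 was at 0.01, below the 0.09 to 0.18 of the other KO arrays.

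**Figure D4:**
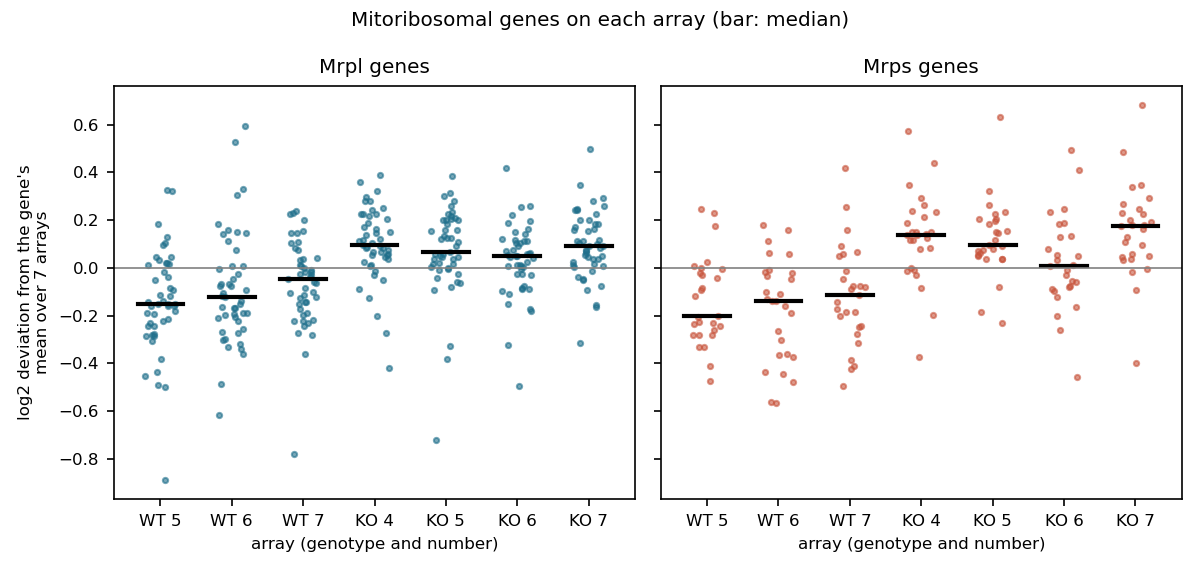
Deviation of each member from its own mean over the 7 arrays (log2, vertical axis) on each array (horizontal axis), for Mrpl genes on the left and Mrps genes on the right. Black bars are medians, which lie below 0 on WT 5, WT 6 and WT 7 and above 0 on all 4 KO arrays, with Mrps genes on KO 6 nearest to 0 at 0.01.

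Several Mrps genes differed as much as those that passed but varied more between arrays. The paralogs Mrps18a, Mrps18b and Mrps18c are all related to a single bacterial protein. Their fold changes were 0.52 ± 0.17, 0.56 ± 0.15 and 0.60 ± 0.17 (limma adjusted p = 0.106, 0.0706 and 0.0798). Mrps18c gave 9.32, 9.72, 9.33 and 9.0 in KO 4 to 7, against 8.88, 8.52 and 8.84 in WT 5 to 7. Mrps18b gave 8.58, 8.07, 8.64 and 8.25 in KO, against 7.81, 7.70 and 7.96 in WT. For Mrps18a, KO 7 stood at 8.88 against 8.20 to 8.31 in the other KO arrays and 7.76 to 7.99 in WT. In each of the 3 paralogs the KO arrays lay above the WT arrays, and none passed the threshold. Mrps25, a protein found only in mitochondria, was at 0.52 ± 0.13 (limma adjusted p = 0.0548) with groups that did not overlap. Its dimmer probe sets were at 0.36 and -0.08.

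Since most members shared a direction, their promoters were searched for motifs of factors known for genes of mitochondria and growth. RefSeq promoters on GRCm38.p6, from 250 bases before the start to 50 after it, were found for 65 of the 74 genes, as 71 promoters. Both strands were searched for the NRF1 motif, CCGGAAG (the ETS family, which includes GABP), AAGATGGCG (YY1) and CACGTG (the E-box bound by MYC and others). CCGGAAG was in 33.8% of member promoters, 18.3% of promoters of tested genes and 8.86% of all promoters in the table. The NRF1 motif was in 16.9%, 10.6% and 4.6% of the same promoters. AAGATGGCG was in 9.86%, 3.11% and 1.4%, and CACGTG in 9.86%, 10.1% and 7.15%. Matches of different motifs overlapped in none of the member promoters. A match is a description of the letters and no evidence of binding. The median log2 fold change was 0.23 in the 24 members with CCGGAAG and 0.20 in the 41 without. It was 0.15 in the 12 with the NRF1 motif and 0.20 in the 53 without. For AAGATGGCG it was 0.27 in 7 and 0.19 in 58, and for CACGTG 0.32 in 5 and 0.19 in 60. These differences between members with and without a motif were not tested.

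Promoter stretches are shown for Mrps22 (120 bases up to the start) and for Mrpl18, Mrpl20, Mrps18a and Mrps18c (30 bases around a match), which had among the largest fold changes. They are written in the gene's direction with the named match in capitals. The Mrps18c stretch also holds CACGTG, left in small letters. They lie at chr9:98601680-98601799 (minus strand), chr17:12916312-12916341 (minus), chr4:155802833-155802862 (plus), chr17:46110967-46110996 and chr17:46111005-46111034 (plus) and chr5:100798592-100798621 (plus) on GRCm38.p6.
Mrps22 CCGGAAG: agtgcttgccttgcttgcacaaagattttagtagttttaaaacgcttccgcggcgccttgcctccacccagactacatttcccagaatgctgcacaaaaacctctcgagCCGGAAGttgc
Mrpl18 CCGGAAG: actgaaaacgCCGGAAGtagggggctgcgg
Mrpl20 CACGTG: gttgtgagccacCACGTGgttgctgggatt
Mrps18a CCGGAAG: acacccctgctCCGGAAGcggaagtgcaca
Mrps18a AAGATGGCG: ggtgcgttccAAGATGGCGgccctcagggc
Mrps18c CCGGAAG, on the other strand: gggtcacgtgaCTTCCGGcccgggaagcgc
In Mrps22 the match starts 11 bases before the start, and in Mrps18a 26 bases before it. The promoters of Mrps14 and Mrps7 held none of the 4 motifs in this window. CCGGAAG was also in promoters of members below 0, among them Mrpl34, Mrpl52, Mrpl57, Mrps12 and Mrps33.

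Among Mrpl genes that did not pass, Mrpl45 was at 0.44 ± 0.21, Mrpl17 at 0.41 ± 0.14 and Mrpl55 at 0.36 ± 0.15 (limma adjusted p = 0.220, 0.120 and 0.173), and each overlapped between the groups. Mrpl45 encodes a protein near the exit of the peptide tunnel that helps to hold the ribosome at the inner membrane. Its WT 7 value of 7.02 lay well below WT 5 and WT 6, at 7.90 and 7.72. Mrpl11, part of the stalk base where translation factors bind, was at 0.28 ± 0.08 (limma adjusted p = 0.0708). Its brightest probe set gave 11.64 to 11.69 in KO and 11.35 to 11.38 in WT, so that a small difference came with very little spread. Its dimmer probe sets were at 0.17, 0.16 and -0.12 (exact permutation p = 0.371, 0.229 and 0.657). Mrpl51 was at 0.33 ± 0.09 (limma adjusted p = 0.0604) with groups that did not overlap, and its dimmer probe sets were at -0.22 and 0.39.

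The members below 0 were 7 Mrpl and 4 Mrps genes, and none passed the threshold. Mrpl28 was at -0.37 ± 0.21, Mrpl34 at -0.34 ± 0.17, Mrpl57 at -0.33 ± 0.12 and Mrpl52 at -0.17 ± 0.11 (limma adjusted p = 0.298, 0.25, 0.141 and 0.344). Mrpl57 gave 8.39, 8.77, 8.64 and 8.88 in KO 4 to 7, against 9.0, 8.97 and 9.04 in WT 5 to 7, with no overlap. Its dimmer probe set was at -0.04. For Mrpl28 the KO 5 value of 9.61 lay below 10.25 to 10.49 in the other KO arrays. In the small subunit Mrps6 was at -0.25 ± 0.14, Mrps34 at -0.18 ± 0.20, Mrps12 at -0.15 ± 0.10 and Mrps33 at -0.01 ± 0.13 (limma adjusted p = 0.301, 0.597, 0.387 and 0.976). The other 3 were Mrpl44 at -0.10, Mrpl23 at -0.03 and Mrpl27 at -0.0043. In the scaling as deposited all 74 members lay above 0, among them Mrpl34 at 0.03 and Mrps33 at 0.42. The median of all tested genes was 0.34 in that scaling.

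Of the genes whose symbol and place differ, Mrps18a is given above among the higher members. Mrps30 was at 0.03 ± 0.09 (limma adjusted p = 0.843), with 9.86 to 9.99 in KO and 9.81 to 9.96 in WT. Mrps36 was at 0.17 ± 0.16 (limma adjusted p = 0.541). The members were also read by origin, as the nomenclature of ribosomal proteins gives it, which counts Mrps18a and Mrps18b as found only in mitochondria although their sequences are related to a bacterial protein. Of 29 Mrpl genes with a bacterial counterpart 3 rose, with a median of 0.17, and of 18 found only in mitochondria none rose, with a median of 0.19 and 5 higher and 1 lower at an unadjusted p under 0.05. Of 15 Mrps genes with a bacterial counterpart 2 rose, with a median of 0.23, and of 11 found only in mitochondria 1 rose, with a median of 0.29. These differences were not tested. Of all tested genes 2.45% rose, so the absence of a call among 18 genes is no evidence of a difference by origin.

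Of the 74 genes, 33 had more than 1 probe set. The 53 dimmer probe sets had the sign of the gene's brightest in 43 cases, and 40 of them exceeded the background level of 13.64 signal units on all 7 arrays. The brightest probe set of each of the 74 genes did so too. Of the 53 dimmer ones, 9 were higher in KO without overlap and 1, of Mrpl42, was lower. For all tested genes, by their brightest probe sets, these shares were 11.4% and 12.7%. The dimmer probe set of Mrpl42 exceeded background on 1 array. How often signs matched between probe sets of other genes was not examined. Mrpl15 had 7 probe sets, from 0.0015 to 0.83, and its brightest was at 0.21. Mrps9 had 4, from -0.17 to 0.93, and its brightest was at 0.09. For these 2 genes the choice of probe set moved the value more than it did for Mrpl39, at 0.10 and 0.24, or Mrps15, at 0.38 and 0.47. With the mean of all probe sets per gene, Mrpl15, Mrpl18, Mrpl20, Mrps7 and Mrps22 rose, and Mrpl13 and Mrps14 did not pass. Mrpl42 was at 0.27 ± 0.31 in its brightest probe set, from 7.29 to 8.78 in WT.

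**Figure D5:**
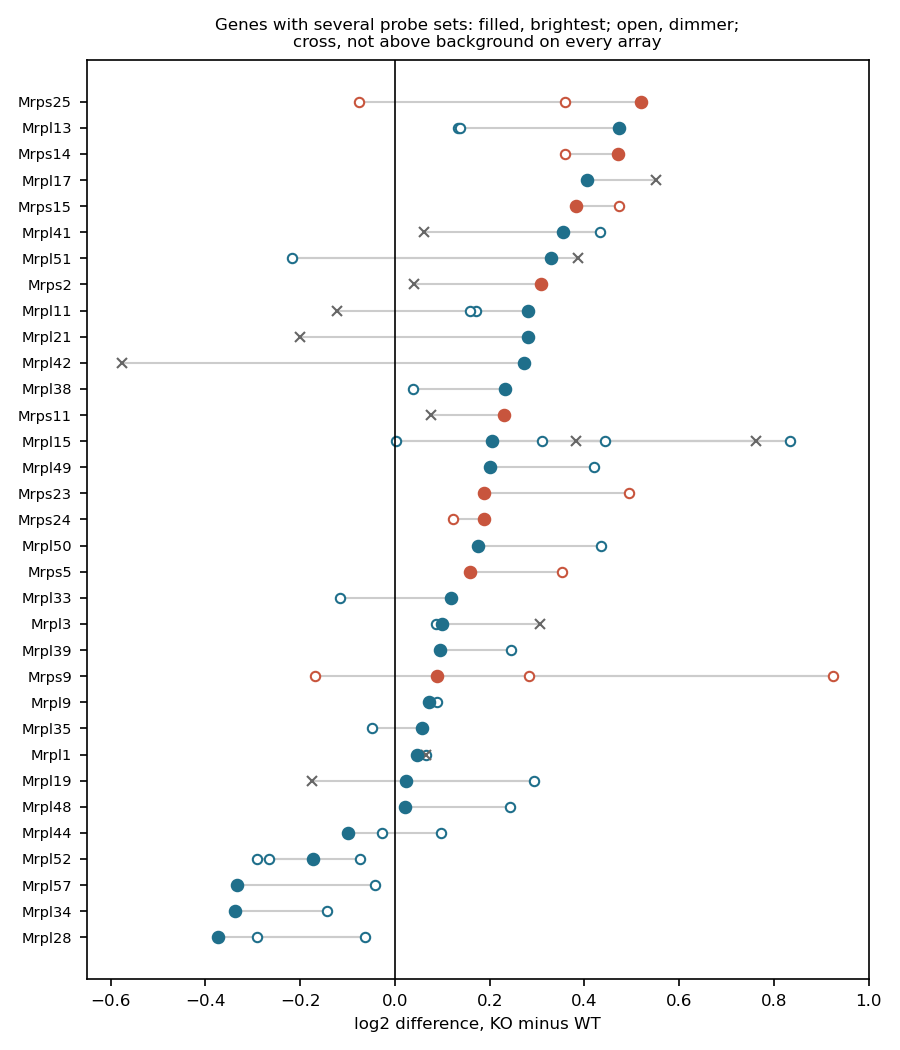
Difference KO minus WT on the log2 scale (horizontal axis) for every probe set of the 33 members with more than 1. Blue marks Mrpl and red Mrps genes, filled points are brightest probe sets, open points dimmer ones, and crosses those not above background on all 7 arrays. Mrpl15 and Mrps9 spread widest to the right, and Mrpl13's dimmer probe sets lie at 0.13 and 0.14 against 0.47.

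Other genes of mitochondrial translation were read from lists. Of 4 tested mitoribosomal proteins with other symbols, Ptcd3, a small-subunit protein that binds RNA, rose by 0.37 ± 0.08 (limma adjusted p = 0.0390). It passed in 0 of 7 fits that left out 1 sample (limma adjusted p from 0.0783 to 0.0963). Chchd1 was at 0.22, Dap3 at 0.11 and Gadd45gip1 at 0.07. Of 22 assembly and ribosomal RNA modification genes none rose and 1 fell. At an unadjusted p under 0.05, 2 were higher and 2 lower (9.09% each), and the median was 0.06. Of all tested genes 11.8% were higher and 13.6% lower at that level, and the lists below are read against the same shares. The gene that fell was Gtpbp6, a GTPase that splits mitochondrial ribosomes. KO 4 to 7 had signals of 22.4, 13.6, 13.1 and 18.1 as deposited, and WT 5 to 7 had 71.1, 66.8 and 34.5. With a log2 fold change of -1.33 ± 0.13 (limma adjusted p = 0.00893), it lay below the background level on KO 5 and KO 6, so the size of its fall is uncertain. Without WT 5 or WT 6 it did not pass the filter on dim probe sets, and it passed the threshold in the other 5 fits.

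Of 10 translation factors and factors of membrane insertion, 1 rose and none fell, 3 were higher and none lower at an unadjusted p under 0.05, and the median was 0.14. The gene that rose was Letm1, an inner membrane protein that binds the ribosome (0.71 ± 0.14, limma adjusted p = 0.0291), and its dimmer probe sets were at -0.12, -0.08 and 0.17. Letm1 passed in 1 of 7 fits that left out 1 sample, the one without WT 5 (limma adjusted p from 0.0465 to 0.0854 over the 7). The elongation factor gene Gfm1 was at 0.36 ± 0.15 and Tufm at 0.07 ± 0.26 (limma adjusted p = 0.167 and 0.891). Of 14 genes of mitochondrial transcription and RNA stability none passed, none was higher and 1 was lower at an unadjusted p under 0.05, and the median was 0.14. The lower one was Mterf2 at -0.40 ± 0.12, and Slirp was at 0.25 ± 0.11 (limma adjusted p = 0.0863 and 0.220). Tfam, which packs mitochondrial DNA and starts its transcription, was at -0.07 ± 0.10.

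Of 41 cytosolic ribosomal protein genes, a comparison added after these values were seen, none passed in limma. At an unadjusted p under 0.05 none was higher and 2 were lower, where the shares of all genes were 11.8% and 13.6%. Their median was -0.01, against 0.20 for the mitoribosomal genes, and this difference was not tested.

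Other measures moved with the groups, and their part in these values was not tested. Of 12 mature granulocyte and monocyte markers 10 fell and none rose, with summed signals of 11370 to 15190 in KO and 32480 to 45660 in WT, and none was at 0. In bulk samples fewer cells of a type and less RNA per cell cannot be told apart. Of 9 tested S phase genes 5 rose and none fell, and the sums over all 10 ran from 35580 to 38240 in KO and from 28410 to 29480 in WT. Of 5 tested erythroid markers 1 rose and 1 fell, with sums of 667.8 to 813 in KO and 895.7 to 1162 in WT. The 3 measured B and T cell markers lay below the filter, with sums of 6.1 to 26.4 in KO and 10.6 to 14.3 in WT. The ratio of 3' to 5' signal for Actb, which reads RNA length, was 11.41 to 12.29 in KO against 12.6 to 13.11 in WT (p = 0.0571 by exact permutation). The same ratio for Gapdh overlapped, at 7.49 to 7.95 in KO and 6.68 to 9.46 in WT (p = 0.6 by exact permutation). With the Actb ratio as a covariate no member passed, and 5 were higher and 1 was lower at an unadjusted p under 0.05. The members' median was 0.12, with 50 of 74 above 0. Of all tested genes 0 rose and 1 fell in that fit, and the standard error of Mrps22 went from 0.09 to 0.18. The Actb ratio did not overlap between the groups, so this fit cannot tell its part from that of genotype.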

How the data were processed

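RNA of 7 LSK samples was measured on 1 array each. The authors deposited 1 linear signal intensity per probe set, and MAS5 is the tool named in the submitters' processing notes. For its version and scaling nothing is given in the sources used here. Of 22690 probe sets, 64 were controls, 20393 had 1 gene symbol in the platform annotation and 691 had several. Signals were taken as log2(signal + 16) and quantile normalized over non-control probe sets. Probe sets with a mean above the 40th percentile were kept, and the brightest per gene was tested with limma 3.58.1 in R 4.3.3 (genotype, 5 residual degrees of freedom, Benjamini-Hochberg over 8077 genes, threshold 0.05). The fit was checked on simulated data. Single values had two-sided exact permutation tests. The background level is the 95th percentile of 27 control probe sets for transcripts not added.

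The members and lists were chosen with earlier results of these data known. Named genes are all members past the threshold, the 6 highest and 4 lowest fold changes of each subunit, the Mrps18 paralogs, Mrps30, Mrps36, members whose probe sets disagree, genes of the other lists past the threshold or of lowest p, and Stk11. Other genes named were picked with their values in view. The alternatives were scaling, pseudocount, filter, probe sets, prior variance, array weights, replicate block, the Actb ratio and leaving out each sample. The number of arrays limits the precision.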

Additional observations from a re-analysis of the deposited data

Results flagged for a closer look

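Among 38 sets of 4 KO values examined for a lone distant array, 3 stood out, where chance flags about 1 in 20. Mrpl52 was at 10.74 on KO 4 against 10.90 to 10.91 on the other KO arrays. Mrps18a was at 8.88 on KO 7 against 8.20 to 8.31. Mterf2, a gene of mitochondrial transcription, was at 8.38 on KO 5 against 8.03 to 8.07.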

How the results depend on the processing

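The direction of the Mrpl and Mrps medians was upward under every alternative run, and no member fell in any. With cyclic loess normalization, a pseudocount of 1 or array weights, 3 Mrpl and 2 Mrps genes rose, and Mrps7 did not pass. The number of genes that rose was 3 in each subunit in the main setting. It was 22 Mrpl and 14 Mrps in the scaling as deposited (medians 0.59 and 0.66; all genes 1304 higher and 42 lower, 96.9% of calls higher against 45.7%) and 12 and 10 with median centring (medians 0.32 and 0.39; 543 genes higher, 76.4% of calls). The members' median minus that of all genes was 0.26 in both of these and 0.22 in the main setting. With a pseudocount of 64 it was 6 and 6 (322 higher and 371 lower in all), with the filter at the 60th percentile 8 and 8 (355 and 359), with trend and robust prior variance 7 and 8 (463 and 454), and without a filter 0 and 0 (28 and 47), where more genes were tested and 28 members had an unadjusted p under 0.05 and were higher. With the Actb ratio as a covariate it was 0 and 0 (0 and 1 in all; medians 0.12 and 0.12). Leaving out 1 sample gave 0 to 1 for each subunit (8 to 77 higher and 29 to 118 lower in all), with medians of 0.14 to 0.21 for Mrpl and 0.21 to 0.31 for Mrps.

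With the replicate block, 0 Mrpl and 0 Mrps genes rose (0 higher and 1 lower of all genes), the Mrpl median was 0.14, and 22 members were higher at an unadjusted p under 0.05. Same-numbered samples had correlations of deviations of 0.0423, 0.0985 and 0.0586. Among samples whose number occurs in both groups, differently numbered pairs were all negative, from -0.0735 to -0.0126. Deviations within a group cancel for each gene, so a positive value for some pairs forces negative values in others. These signs therefore cannot show whether the numbers pair the samples. KO 4, which has no WT sample of its number, was at 0.0706 with WT 5, above the same-numbered value of WT 5. All these correlations were small. Whether the numbers pair the samples was not tested, and the main setting was fitted without pairing.

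All 11 members below 0 lay above 0 in the scaling as deposited, as did 74 of 74. There the median of all tested genes was 0.34, and of the members named next only Mrps33 lay above that median. Among the 11 were Mrpl52 (0.25), Mrpl57 (0.071), Mrpl34 (0.034), Mrpl28 (0.058), Mrps33 (0.42), Mrps12 (0.24), Mrps34 (0.21) and Mrps6 (0.075). Mrps33 was also at 0.15 with median centring, 0.056 with the replicate block and 0.12 with the Actb ratio, and -0.13 to 0.068 without 1 sample. With the Actb ratio Mrps34 was at 0.61, Mrps36 at -0.094 and Mrpl42 at -0.17. Without 1 sample Mrps30 ran from -0.0086 to 0.068 and Mrpl42 from -0.095 to 0.65. The cause was not tested.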
